A study of Homo sapiens with 15 samples.

Results

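The genes described here are 44 protein-coding genes of chromosome 17p13, from KIAA0753 to MPDU1, of the 33158 genes with a value in the deposited expression table. They lie within chr17:6578148-7592789 of the human genome build GRCh38, a stretch of 1.01 Mb. They were chosen by their position together with measured values: the difference between cancer stem cells (CSCs) and non-CSCs in SUM149PT and in HCC1937, and the differences between lines, were among the values they were selected on. Those values are therefore given as a description, without a test of the members as a list. The annotation used here gives coordinates and no cytogenetic bands, so the band name was not checked, but each of the 44 members lies on chromosome 17 between the named ends.

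The study compared CSCs of established human triple negative breast cancer cell lines with the rest of each line, using RNA sequencing of polyadenylated RNA from 15 libraries in 5 groups of 3. SUM149PT and HCC1937 were each sorted by flow cytometry into CD44+, CD24-/low cells, taken as CSCs, and the remaining cells, taken as non-CSCs. SUM159PT was sequenced unsorted, and its cells were treated as CSCs as a whole. SUM149PT and SUM159PT were kept in F12 medium and HCC1937 in RPMI, both with fetal bovine serum, so that medium and line cannot be told apart in any comparison with HCC1937. No drug or genetic change was applied to any group, and the labels do not say whether the 3 replicates of a group were separate cultures or sorts. The values are FPKM, fragment counts scaled for the length of the transcript and for the size of the library, and the number of reads behind each library is unknown. Within groups the libraries correlated with each other at 0.967 to 0.991, across 12164 genes that are not independent replicates. In such bulk libraries, fewer cells expressing a gene and less RNA in each cell cannot be told apart.

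The short arm of chromosome 17 is dense in genes, many of them short, close together and read from opposite strands, and it is among the arms that are often lost in breast tumours. The members share a place and no single pathway. They include the large catalytic subunit of RNA polymerase II, translation factors, a core autophagy protein, ligands of the tumour necrosis factor family, solute carriers and synaptic scaffold proteins. Gene copy number was not measured in these samples.

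By role, 9 members were placed under transcription and chromatin (POLR2A, MED31, GPS2, PHF23, C17orf49, ZBTB4, BCL6B, YBX2, SENP3). Of these, YBX2 binds RNA and SENP3 is a protease that removes SUMO, so the group name fits them loosely. Another 3 serve translation and transfer RNA modification (EIF4A1, EIF5A, ELP5), and 7 belong to membrane traffic, autophagy and membrane lipids (GABARAP, CTDNEP1, RNASEK, PLSCR3, ACAP1, TMEM256, TMEM102). There are 5 solute carriers (SLC13A5, SLC16A11, SLC16A13, SLC2A4, SLC35G6), and 8 signalling, synaptic scaffold and ubiquitin adaptor genes (DVL2, DLG4, TNK1, NLGN2, CHRNB1, FGF11, NEURL4, KCTD11). A further 5 are immune ligands, interferon-linked and lysosomal genes (XAF1, TNFSF12, TNFSF13, CD68, ASGR1), 4 serve metabolism and redox (ACADVL, ALOX12, MPDU1, TXNDC17), and 3 are linked to the centrosome, the cilium or the testis (KIAA0753, TEKT1, FBXO39). Placing the little-known TMEM256 and TMEM102 with the membrane genes rests on their names alone.

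Of the 44 members, 35 were expressed highly enough to be fitted in each of the 7 comparisons described here, where a gene had to average 0.1 FPKM or more across the libraries in question. FBXO39 and ACAP1 passed in 5 comparisons each and YBX2 in 6. The other 6, SLC13A5, TEKT1, ALOX12, BCL6B, SLC16A11 and SLC35G6, passed in none, and their highest group mean was 0.0731 FPKM. These 6 include the citrate transporter SLC13A5, the lipoxygenase ALOX12 and the ciliary tektin TEKT1. A gene that passes the minimum only through the group where it is high has to differ, so the counts below cover the fitted members and not the whole list.

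The fitted members stood at very different levels. GABARAP, which tethers cargo and receptors to the autophagosome membrane, was the most abundant of the 44, at 81.9, 94.3 and 87.4 FPKM in SUM149PT CSCs, 168, 154 and 158 in SUM149PT non-CSCs, 127, 125 and 107 in HCC1937 CSCs, 138, 135 and 128 in HCC1937 non-CSCs and 336, 342 and 338 in SUM159PT. Its 3 values in SUM159PT lay above those of every sorted library, the SUM149PT CSCs lay below every other library, and no group overlapped its neighbour in that order. TMEM256, a small membrane protein, stood at 53.5, 64.4 and 60.3 FPKM in SUM149PT CSCs, 84.2, 65.3 and 87.4 in SUM149PT non-CSCs, 109.6, 94.4 and 84 in HCC1937 CSCs, 95.9, 119 and 95.7 in HCC1937 non-CSCs and 283, 268 and 276 in SUM159PT. It was lowest in SUM149PT CSCs and highest in SUM159PT without overlap, while HCC1937 CSCs overlapped both SUM149PT non-CSCs and HCC1937 non-CSCs. EIF4A1, the RNA helicase that unwinds messenger RNA for translation, stood at 78.5, 88.3 and 84.8 FPKM in SUM149PT CSCs, 114, 113 and 108 in SUM149PT non-CSCs, 148, 129.96 and 125 in HCC1937 CSCs, 126, 121 and 109 in HCC1937 non-CSCs and 82.6, 90.5 and 76.3 in SUM159PT. SUM159PT and the SUM149PT CSCs overlapped at the low end, and the other groups overlapped as a chain above them.

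EIF5A, the translation factor that carries hypusine, stood at 49, 54.3 and 50.5 FPKM in SUM149PT CSCs, 83.9, 87.2 and 86.2 in SUM149PT non-CSCs, 103, 91.3 and 86.4 in HCC1937 CSCs, 93.2, 85.4 and 83.1 in HCC1937 non-CSCs and 189.5, 171 and 189 in SUM159PT. Its values in SUM159PT lay above all sorted libraries and those of SUM149PT CSCs below them, with the other 3 groups overlapping between. ACADVL, the mitochondrial enzyme that starts the breakdown of very long chain fatty acids, stood at 39.3, 43.5 and 42.1 FPKM in SUM149PT CSCs, 129, 136 and 128 in SUM149PT non-CSCs, 90.6, 81.1 and 79.6 in HCC1937 CSCs, 118, 116 and 106 in HCC1937 non-CSCs and 81.2, 87.8 and 90.5 in SUM159PT. SUM149PT held both its lowest group, the CSCs, and its highest, the non-CSCs, and HCC1937 CSCs overlapped SUM159PT. CD68, a lysosomal membrane glycoprotein best known from macrophages, stood at 16.4, 16.2 and 16 FPKM in SUM149PT CSCs, 48.1, 47 and 49.9 in SUM149PT non-CSCs, 42.8, 44.2 and 39.9 in HCC1937 CSCs, 41.4, 39.7 and 38.9 in HCC1937 non-CSCs and 30.5, 34 and 31.2 in SUM159PT. SUM149PT again held both ends of the order, and the HCC1937 fractions overlapped each other.

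CTDNEP1, a phosphatase of the nuclear envelope that acts on lipin, stood at 18, 19.1 and 17.6 FPKM in SUM149PT CSCs, 31.4, 31.3 and 28.2 in SUM149PT non-CSCs, 34.3, 29.4 and 27.8 in HCC1937 CSCs, 28.8, 30.2 and 27.2 in HCC1937 non-CSCs and 61.1, 57.2 and 57.3 in SUM159PT. SUM149PT CSCs were lowest and SUM159PT highest, with no overlap, and the 3 groups between them overlapped. RNASEK, a small membrane protein tied to the vacuolar proton pump, stood at 14.8, 17.8 and 14.8 FPKM in SUM149PT CSCs, 37, 33.9 and 36 in SUM149PT non-CSCs, 35, 19.6 and 16.8 in HCC1937 CSCs, 23.5, 24.9 and 20.3 in HCC1937 non-CSCs and 40.8, 32.2 and 41.9 in SUM159PT. The first HCC1937 CSC library stood well above the others of its group for this gene, so that HCC1937 CSCs overlapped every other group, while SUM149PT CSCs lay below the other 3 groups. RNASEK is also covered by an annotated readthrough gene on its strand, and how reads were divided between them is unknown.

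**Figure D1:**
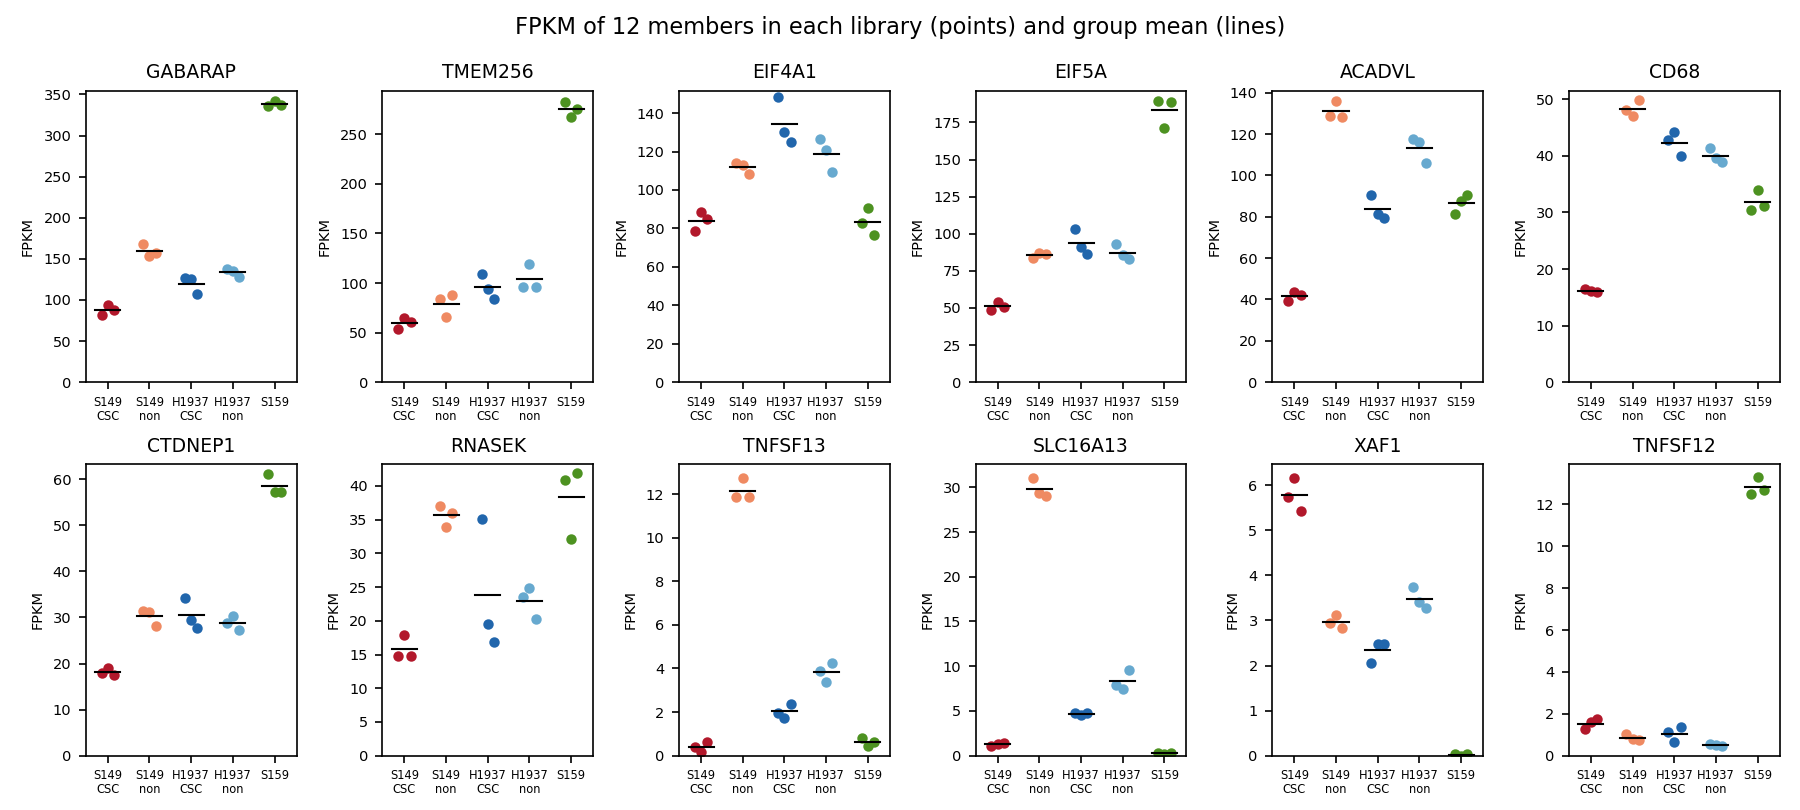
FPKM (vertical axes, each from 0) of 12 members in each of the 15 libraries (points, 3 a group) with the group means (lines), for SUM149PT (S149), HCC1937 (H1937) and SUM159PT (S159). TNFSF13 and SLC16A13 stand highest in SUM149PT non-CSCs, at 11.8 to 12.7 and 29 to 31.1 FPKM, XAF1 in SUM149PT CSCs at 5.43 to 6.16 FPKM, and TNFSF12 in SUM159PT at 12.5 to 13.3 FPKM.

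Summed over the 44 members, the values came to 0.163% of all FPKM in SUM149PT CSCs, 0.322% in SUM149PT non-CSCs, 0.261% in HCC1937 CSCs, 0.254% in HCC1937 non-CSCs and 0.210% in SUM159PT, as means of 3 libraries. SUM149PT non-CSCs thus gave the members the largest share of the library and SUM149PT CSCs the smallest among the 5 groups. Among the 34 members that averaged 1 FPKM or more, 15 had their highest group mean in SUM149PT non-CSCs, 11 in SUM159PT, 4 in HCC1937 CSCs, 3 in HCC1937 non-CSCs and 1, XAF1, in SUM149PT CSCs. The lowest group mean fell in SUM149PT CSCs for 22 of the 34, in SUM159PT for 5, in each HCC1937 fraction for 3 and in SUM149PT non-CSCs for 1, ELP5. These orders, like those of the single members, are of FPKM as deposited, and the SUM159PT libraries have larger sums, so that as a share of the library sum EIF5A and CTDNEP1, for example, were no longer highest in SUM159PT.

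Against the mean of the 12 sorted libraries, the median of these 34 members on the log2(FPKM + 0.1) scale was -0.76, -0.77 and -0.77 in the SUM149PT CSC libraries and 0.50, 0.51 and 0.56 in the SUM149PT non-CSC libraries. The HCC1937 CSC libraries spread more widely, at 0.30, 0.11 and -0.01. The HCC1937 non-CSC libraries, at 0.29, 0.28 and 0.24, stood above all of these but the first. The SUM159PT libraries stood at 0.17, 0.16 and 0.16. The same median over all 12164 genes that averaged 1 FPKM or more stayed between -0.16 and 0.15 in the sorted libraries and was -0.95, -0.88 and -0.94 in SUM159PT. These values are of FPKM as deposited, and the place of SUM159PT among the groups moves with the scaling, as given with its comparisons.

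**Figure D2:**
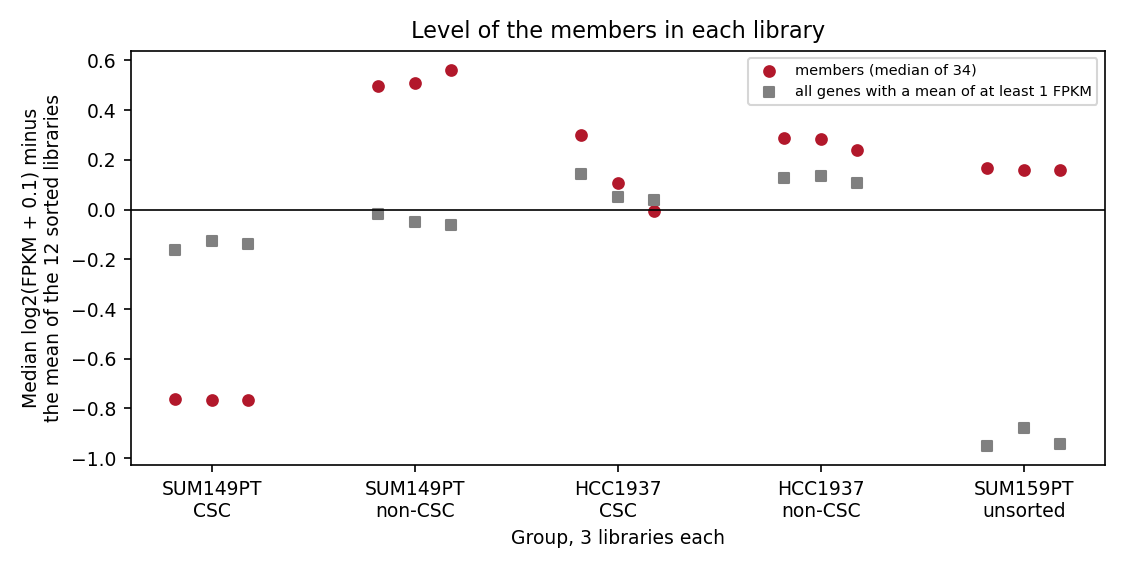
Median over genes of log2(FPKM + 0.1) in each library minus that gene's mean over the 12 sorted libraries (vertical axis), for 34 members (circles) and for the 12164 genes that averaged 1 FPKM or more (squares), by group (horizontal axis, 3 libraries each). Members lie at -0.77 to -0.76 in SUM149PT CSCs and at 0.50 to 0.56 in SUM149PT non-CSCs.

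The bases around the members' start sites were searched for short motifs. RefSeq promoters (build GRCh38.p14, 250 bases before to 50 after the start) could be matched for 35 of the 44 members, among them SLC13A5, TEKT1, ALOX12 and SLC16A11, which were not fitted. On either strand, GGGCGG, the GC box, occurred in 24 of the 35, or 68.6%, against 45.0% of all 35116 promoters, and CCAAT occurred in 7 of them, against 34.6% of all. TATAAA occurred in 2 (11.5% of all promoters), CCGGAAG in 5 (10.3%) and TTCNNTTTC in 1 (8.11%). None of these motifs contains another. Some windows overlap, so that POLR2A and ZBTB4 share GC boxes, as do CTDNEP1 and ELP5, and such a site counts for both members. The members' exons are also richer in G and C than those of most genes, as given with the SUM159PT comparisons, and a match is a run of letters and not a measured binding site.

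The 250 bases before the start, written 5′ to 3′ along the gene's own strand, are printed for the 4 fitted members whose window holds no annotated exon, and they span members with large and small differences between the SUM149PT fractions. Motif matches are in capitals, and ATTGG is CCAAT on the opposite strand. YBX2, a germ cell Y-box protein that binds RNA, is read from the minus strand (chr17:7294640-7294889) and holds 3 GC boxes and 2 CCAAT matches. EIF5A is read from the plus strand (chr17:7306749-7306998) and holds 1 CCAAT. NLGN2, a postsynaptic adhesion protein, and TMEM102 are read from the plus strand (chr17:7407595-7407844 and chr17:7435185-7435434) and hold no match, which says only that these letters are absent from the window.
YBX2: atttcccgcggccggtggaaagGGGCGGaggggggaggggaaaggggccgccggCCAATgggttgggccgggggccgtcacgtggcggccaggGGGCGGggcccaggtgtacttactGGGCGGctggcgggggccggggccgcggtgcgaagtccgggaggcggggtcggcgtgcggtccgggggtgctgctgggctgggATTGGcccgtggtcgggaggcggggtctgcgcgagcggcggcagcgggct
EIF5A: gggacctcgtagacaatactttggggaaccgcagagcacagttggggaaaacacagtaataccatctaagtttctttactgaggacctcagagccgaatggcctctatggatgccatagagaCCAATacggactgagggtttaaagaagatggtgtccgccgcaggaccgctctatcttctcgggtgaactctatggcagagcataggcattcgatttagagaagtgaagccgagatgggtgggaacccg
NLGN2: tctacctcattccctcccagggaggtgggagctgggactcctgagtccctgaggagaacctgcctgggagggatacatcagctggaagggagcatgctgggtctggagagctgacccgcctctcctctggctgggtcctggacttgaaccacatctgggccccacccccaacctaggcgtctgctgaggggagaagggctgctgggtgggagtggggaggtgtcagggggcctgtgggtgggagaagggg
TMEM102: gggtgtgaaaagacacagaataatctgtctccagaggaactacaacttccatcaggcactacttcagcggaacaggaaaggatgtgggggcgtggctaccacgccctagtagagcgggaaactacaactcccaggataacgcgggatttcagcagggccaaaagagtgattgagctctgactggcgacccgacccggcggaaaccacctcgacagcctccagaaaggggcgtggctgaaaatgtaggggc
In SUM149PT the log2 differences between CSCs and non-CSCs for these genes were -3.34 for YBX2, -0.74 for EIF5A, -0.95 for NLGN2 and -2.37 for TMEM102, so that both the window with the most matches and a window with none belonged to genes that were far lower in CSCs.

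The comparison of SUM149PT CSCs with SUM149PT non-CSCs asks which genes set the sorted stem-like fraction apart in this line. All differences are CSC minus non-CSC in log2(FPKM + 0.1), with the standard error (SE) of the fit and 3 libraries a group, and a gene is called higher or lower where its p, adjusted across the genes fitted, was 0.05 or less. Lower in CSCs were 34 of the 38 fitted members, beside 41.5% of the 16037 genes fitted, and 3 were higher, beside 33.3% of them. Since this contrast helped to choose the members, nothing is read from these counts. The median member difference was -1.16, with quartiles of -1.67 and -0.76, and the median of all genes was -0.11. For each of the 38 members the 3 CSC libraries lay wholly below (34 members) or wholly above (4 members) the 3 non-CSC libraries, while this held for 43.4% (below) and 35.3% (above) of all genes.

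By role, the 8 fitted members placed under transcription and chromatin were all called lower in SUM149PT CSCs, between -3.34 (YBX2) and -0.80 (C17orf49), with POLR2A at -1.53 ± 0.07. The 8 signalling, synaptic scaffold and ubiquitin adaptor genes were likewise all called lower, between -3.46 for the tyrosine kinase TNK1 and -0.70 for the synaptic scaffold DLG4. Apart from ACAP1, which passed the minimum only through the non-CSCs and so had to be lower in CSCs, the 6 other membrane genes ran from -2.37 (TMEM102) to -0.40 (TMEM256), each called lower. The TMEM256 call was the weakest of these: it was lost when any 1 of the 3 CSC libraries or non-CSC library 1 or 3 was left out, at -0.46 to -0.32, and also with quantile normalization (-0.30), upper quartile scaling (-0.33), the GC trend removed (-0.26) or libraries of the same number treated as paired. Of the metabolic genes ACADVL, TXNDC17 and MPDU1 were called lower, at -1.65, -1.07 and -1.04, and of the solute carriers SLC16A13 and the glucose transporter SLC2A4, at -4.47 and -0.95. With quantile normalization the calls of SLC2A4 (-0.35) and of KIAA0753 (-0.18) were lost. The group of immune ligands, interferon-linked and lysosomal genes was split, with TNFSF13, ASGR1 and CD68 lower and XAF1 and TNFSF12 higher.

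TNFSF13, the ligand APRIL, which acts on B cells and plasma cells, stood at 0.380, 0.173 and 0.649 FPKM in SUM149PT CSCs, 11.8, 12.7 and 11.8 in SUM149PT non-CSCs, 1.97, 1.73 and 2.38 in HCC1937 CSCs, 3.89, 3.4 and 4.23 in HCC1937 non-CSCs and 0.815, 0.458 and 0.620 in SUM159PT. SUM149PT non-CSCs were far above every other group, the CSCs of this line overlapped SUM159PT at the low end, and HCC1937 lay between. Its difference in SUM149PT was -4.73 ± 0.36. SLC16A13, a carrier of the monocarboxylate transporter family, stood at 1.09, 1.32 and 1.36 FPKM in SUM149PT CSCs, 31.1, 29.3 and 29 in SUM149PT non-CSCs, 4.72, 4.51 and 4.74 in HCC1937 CSCs, 7.92, 7.47 and 9.55 in HCC1937 non-CSCs and 0.280, 0.230 and 0.327 in SUM159PT, with a SUM149PT difference of -4.47 ± 0.09. No groups overlapped for SLC16A13, and SUM149PT non-CSCs were again the highest.

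XAF1, an interferon-inducible partner of the apoptosis inhibitor XIAP, went the other way, at 5.73, 6.16 and 5.43 FPKM in SUM149PT CSCs, 2.93, 3.12 and 2.83 in SUM149PT non-CSCs, 2.06, 2.48 and 2.47 in HCC1937 CSCs, 3.74, 3.42 and 3.27 in HCC1937 non-CSCs and 0.0374, 0 and 0.0261 in SUM159PT. SUM149PT CSCs were the highest group, SUM159PT libraries were at or next to 0, and no groups overlapped. The difference in SUM149PT was 0.94 ± 0.07. TNFSF12, the ligand TWEAK, stood at 1.28, 1.59 and 1.74 FPKM in SUM149PT CSCs, 1.02, 0.775 and 0.757 in SUM149PT non-CSCs, 1.15, 0.648 and 1.35 in HCC1937 CSCs, 0.564, 0.494 and 0.473 in HCC1937 non-CSCs and 12.5, 13.3 and 12.7 in SUM159PT. It was higher in SUM149PT CSCs than in non-CSCs by 0.79 ± 0.15, although both fractions overlapped HCC1937 CSCs, and its level in SUM159PT was far above the rest. The remaining member called higher in SUM149PT CSCs was ELP5 at 0.36 ± 0.08, while FBXO39, an F-box protein, had a positive difference of 0.47 ± 0.19 that was not called.

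ELP5, a subunit of the Elongator complex that modifies transfer RNA, stood at 5.72, 5.39 and 5.27 FPKM in SUM149PT CSCs, 3.87, 4.47 and 4.42 in SUM149PT non-CSCs, 13.9, 12.5 and 11.5 in HCC1937 CSCs, 11.6, 11 and 9.59 in HCC1937 non-CSCs and 13, 13.7 and 14.1 in SUM159PT. SUM149PT non-CSCs were the lowest group and SUM149PT CSCs came next without overlap, and above them HCC1937 CSCs overlapped both HCC1937 non-CSCs and SUM159PT.

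**Figure D3:**
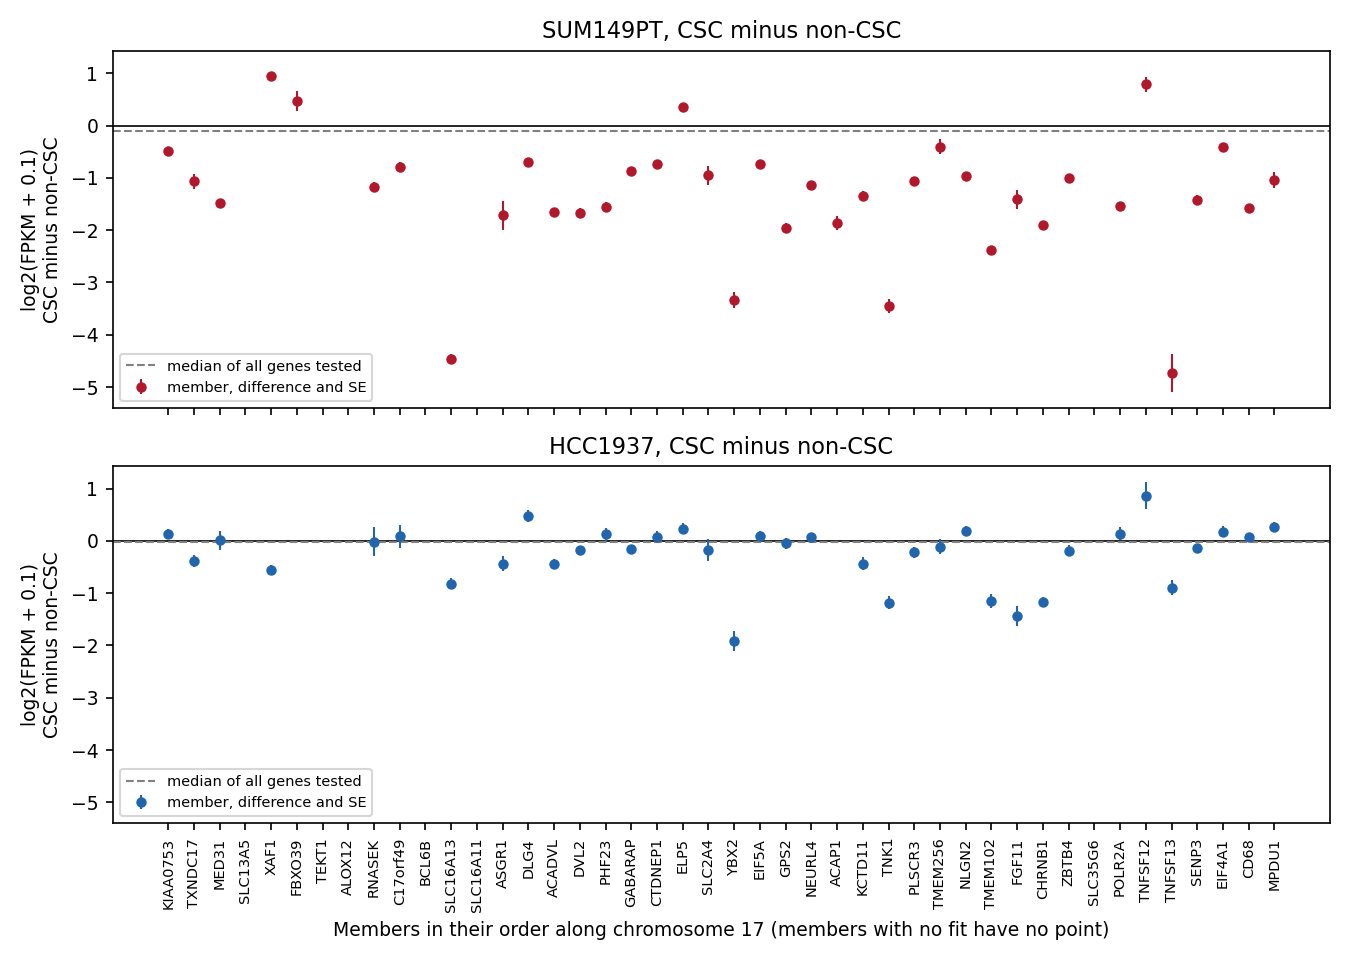
Difference between CSCs and non-CSCs in log2(FPKM + 0.1) (vertical axes; points with SE, 3 libraries a group) for the members in their order along chromosome 17 (horizontal axis), in SUM149PT (top) and HCC1937 (bottom), with the median of all genes as a dashed line. In SUM149PT 34 of 38 fitted members lie below 0, with a median of -1.16, and in HCC1937 21 of 36, with a median of -0.13.

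In HCC1937 the same comparison gave smaller differences. There 10 of the 36 fitted members were called lower in CSCs, beside 15.3% of 15582 genes, and 1 was higher, beside 10.3%. This contrast, too, helped to choose the members, so nothing is read from the counts. The median member difference was -0.13, between -0.20 and -0.02 with 1 library left out, and the median of all genes -0.03. With the other scalings the member median lay closer to 0, at -0.07 to -0.000141. The split between higher and lower depended on the scaling, for members and for all genes. It was 5 higher and 8 lower, beside 14.4% and 11.3% of all genes, after rescaling to TPM, which sets the sum of each library to the same total, and 4 and 10, beside 14.8% and 16.8%, once the trend with GC content was removed. The HCC1937 fractions overlapped for 16 of the 36 members, and 16 lay wholly lower and 4 wholly higher in CSCs, beside 24.3% and 19.1% of all genes.

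The 10 called lower were YBX2, FGF11, TNK1, CHRNB1, TMEM102, TNFSF13, SLC16A13, XAF1, KCTD11 and ACADVL, and the call higher was DLG4. Among the role groups the signalling genes held the largest number of these, with 4 lower and 1 higher of 8, whereas of the transcription genes YBX2 alone was called and of the translation genes none. YBX2 stood at 0.102, 0.167 and 0.207 FPKM in SUM149PT CSCs, 2.38, 2.49 and 2.56 in SUM149PT non-CSCs, 0.832, 1.26 and 0.770 in HCC1937 CSCs, 4.05, 4.11 and 3.25 in HCC1937 non-CSCs and 0, 0.0224 and 0 in SUM159PT, with an HCC1937 difference of -1.91 ± 0.20. It was lower in CSCs than in non-CSCs in both sorted lines without overlap and was at or next to 0 in SUM159PT. FGF11, an intracellular member of the fibroblast growth factor family, stood at 1.27, 0.888 and 0.760 FPKM in SUM149PT CSCs, 2.71, 2.93 and 2.45 in SUM149PT non-CSCs, 0.812, 0.491 and 0.844 in HCC1937 CSCs, 1.98, 2.0 and 2.22 in HCC1937 non-CSCs and 1.19, 1.12 and 1.18 in SUM159PT, and its HCC1937 difference was -1.44 ± 0.20. The CSCs of SUM149PT overlapped both those of HCC1937 and SUM159PT at the low end, below the non-CSCs of HCC1937 and, above those, of SUM149PT.

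DLG4, the postsynaptic scaffold PSD-95, stood at 6.41, 6.4 and 7.29 FPKM in SUM149PT CSCs, 10.6, 11.2 and 10.9 in SUM149PT non-CSCs, 3.68, 3.68 and 3.27 in HCC1937 CSCs, 2.22, 2.51 and 2.87 in HCC1937 non-CSCs and 8.26, 9.09 and 8.7 in SUM159PT. SUM149PT non-CSCs were highest and HCC1937 non-CSCs lowest, with no overlap between any groups. Its HCC1937 difference of 0.47 ± 0.11 was no longer called without HCC1937 CSC library 1 (0.44) or 2 (0.45), or without HCC1937 non-CSC library 1 (0.39) or 2 (0.47). The call of KCTD11, an adaptor of the CUL3 ubiquitin ligase, at -0.44 was lost without any 1 of the 3 HCC1937 CSC libraries or of the first 2 non-CSC libraries, at -0.50 to -0.35. The call of ACADVL, at -0.44, was lost without HCC1937 CSC library 2 or 3 or non-CSC library 1 or 2, at -0.42 to -0.40. The calls of DLG4, KCTD11 and XAF1 were also lost when libraries of the same number were treated as paired. That of XAF1 was lost after rescaling to TPM (-0.45) as well, and that of KCTD11 under each of the 4 other scalings, at -0.38 to -0.32. TNFSF12 at 0.86 ± 0.26 and MPDU1, needed for the use of dolichol-linked mannose in protein glycosylation, at 0.27 ± 0.10 were positive in HCC1937 and not called.

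The difference between the 2 CSC effects, SUM149PT minus HCC1937, asks directly whether the fractions differ more in one line than in the other. It was called lower for 32 of 38 fitted members, beside 33% of 16451 genes, and higher for 1, beside 28.1%. These values come from the contrasts that chose the members and nothing is read from the counts. The median member value was -1.15, and that of all genes -0.08. TNFSF13 was at -3.84 ± 0.41 and SLC16A13 at -3.65 ± 0.14, both lower in CSCs in each line and far more so in SUM149PT. XAF1, at 1.495 ± 0.12, was higher in CSCs of SUM149PT and lower in CSCs of HCC1937, where its call was lost after rescaling to TPM. ELP5 at 0.12 ± 0.14 was not called. The 8 transcription genes were all called lower in this comparison, POLR2A at -1.67 ± 0.15 among them, while FGF11 at 0.03 ± 0.29, TNFSF12 at -0.08 ± 0.32, TMEM256 at -0.29 ± 0.21 and FBXO39 at 0.20 ± 0.24 were not called. The call of YBX2, at -1.42, was lost with a pseudocount of 1 (-0.28), and that of ACAP1, at -1.95, with one of 0.01 (-2.53). ACAP1 passed the minimum here only through SUM149PT non-CSCs, so its value had to be negative, and nothing is read from its place among the 32. SLC2A4 at -0.77 lost its call when single libraries were left out: HCC1937 CSC 1 or 2, HCC1937 non-CSC 1 or 2, SUM149PT CSC 2 or 3, or SUM149PT non-CSC 2 or 3, at -0.79 to -0.60. It was also lost with quantile normalization (-0.30), rescaling to TPM (-0.92), the GC trend removed (-0.57) or libraries of the same number treated as paired.

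The lines were also compared within each fraction. Between the CSCs, HCC1937 minus SUM149PT, 27 of 37 fitted members were called higher, beside 45.2% of 15952 genes, and 4 were lower, beside 31.5%. Between the non-CSCs of the same lines 8 of 38 were called higher, beside 41.4% of 16433 genes, and 21 were lower, beside 35.6%. Both contrasts helped to choose the members, and nothing is read from these counts. The medians of the fitted members were 0.86 in CSCs and -0.27 in non-CSCs, against 0.24 and 0.10 over all genes. FBXO39 in both fractions and ACAP1 in non-CSCs passed the minimum only through SUM149PT and had to be lower in HCC1937.

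The split moved with the scaling, to 23 higher and 9 lower for CSCs with the GC trend removed, beside 39.7% and 40.1% of all genes, and to 5 higher and 24 lower for non-CSCs after rescaling to TPM, beside 35.4% and 39% of them. In CSCs the calls of ASGR1, the asialoglycoprotein receptor, and of ZBTB4, a zinc finger protein that binds methylated DNA, rested on single libraries. ASGR1 at 1.03 lost its call without HCC1937 CSC library 1 (0.96) or 2 (0.94), with quantile normalization (0.77) or with the GC trend removed (0.71). Removal of the GC trend also ended the calls of C17orf49 (0.57 to 0.25) and GABARAP (0.44 to 0.20). ZBTB4 at 0.19 lost it without HCC1937 CSC library 2 or 3 or any 1 SUM149PT CSC library, at 0.16 to 0.19, and under each of the 4 other scalings, at -0.13 to 0.11. In non-CSCs the calls of ACADVL and KIAA0753 were lost without any 1 of the 6 libraries, at -0.24 to -0.16 and 0.15 to 0.21. DVL2, an adaptor of Wnt signalling, lost its call without HCC1937 non-CSC library 1 (-0.30) or 3 (-0.28), and ASGR1 without either of those or SUM149PT non-CSC library 2 or 3 (-0.24 to -0.21). Quantile normalization also ended the ASGR1 call (-0.25 to -0.11). MED31, a Mediator subunit, and XAF1 lost theirs without HCC1937 non-CSC library 1 or 2 or SUM149PT non-CSC library 1 or 3, at 0.32 to 0.40 and 0.17 to 0.23. The calls of KIAA0753, MED31 and XAF1 were also lost with upper quartile scaling, rescaling to TPM or the GC trend removed, at 0.02 to 0.09, 0.25 to 0.33 and 0.05 to 0.11.

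MPDU1 was higher in HCC1937 in both fractions, at 2.56, 3.06 and 2.08 FPKM in SUM149PT CSCs, 5.7, 5.34 and 4.94 in SUM149PT non-CSCs, 14.9, 12.7 and 12.6 in HCC1937 CSCs, 11.7, 11 and 10.5 in HCC1937 non-CSCs and 15, 14.3 and 17.3 in SUM159PT. SUM149PT CSCs were lowest and SUM149PT non-CSCs next, without overlap, and HCC1937 CSCs overlapped SUM159PT at the top. The line difference was 2.36 ± 0.16 in CSCs and 1.04 ± 0.08 in non-CSCs. TNFSF13 changed direction between the fractions, at 2.20 ± 0.37 in CSCs and -1.64 ± 0.10 in non-CSCs. ELP5 was higher in HCC1937 in both, at 1.19 ± 0.09 and 1.31 ± 0.10.

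KCTD11 stood at 6.41, 6.28 and 7.48 FPKM in SUM149PT CSCs, 17.2, 17.2 and 16.9 in SUM149PT non-CSCs, 2.97, 2.5 and 3.09 in HCC1937 CSCs, 4.06, 4.19 and 3.44 in HCC1937 non-CSCs and 7.55, 8.4 and 7.72 in SUM159PT. It was lower in HCC1937 than in SUM149PT in both fractions, at -1.21 ± 0.11 in CSCs and -2.11 ± 0.09 in non-CSCs, and no groups overlapped. DLG4 was lower in HCC1937 as well, at -0.90 ± 0.09 in CSCs and -2.07 ± 0.10 in non-CSCs. XAF1 was lower in HCC1937 CSCs than in SUM149PT CSCs, at -1.27 ± 0.10. Its difference in non-CSCs was 0.22 ± 0.08, among the calls lost without single libraries.

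SUM159PT was compared with the sorted CSCs of each line. Differences between lines were among the values that chose the members, and the CSC libraries of SUM149PT and HCC1937 are used again here, so these comparisons are a description as well. They ask how a line taken as CSCs as a whole stands against the sorted CSCs. Against SUM149PT CSCs, 24 of 37 fitted members were higher in SUM159PT, beside 31.5% of 14976 genes, and 5 were lower, beside 55.5%. Against HCC1937 CSCs, 16 of 37 were higher, beside 27.5% of 15515 genes, and 12 were lower, beside 57.9%. Nothing is read from these counts.

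The SUM159PT libraries differed from the sorted ones as a whole, and the member counts moved with the scaling. All FPKM of a SUM159PT library summed to between 634746 and 652082, against 291276 to 366532 in the sorted libraries. After rescaling to TPM, which divides each value by that sum, the counts against SUM149PT CSCs became 13 higher and 15 lower, beside 16% and 71.4% of all genes, and those against HCC1937 CSCs 7 higher and 23 lower, beside 14.8% and 72.8%. Quantile normalization gave 25 higher and 8 lower against HCC1937 CSCs, beside 42.1% and 41.7%. The median member difference was 0.97 against SUM149PT CSCs and 0.14 against HCC1937 CSCs, and it turned to -0.11 and -0.86 after rescaling to TPM. Relative to the median of all genes, which was -0.76 and -0.97, the members stood 1.73 and 1.11 higher. They stood 1.72 and 1.10 higher after that rescaling, which shifts all genes of a library nearly alike and so could hardly change this gap. With a pseudocount of 1 the gap was 1.05 and 0.59. It was 1.56 and 0.66 with quantile normalization and 1.77 and 1.18 with upper quartile scaling.

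The gap between members and other genes also went along with base composition. Across the 13140 and 13519 genes with an annotated GC content, which are not independent replicates, the Spearman correlation of the SUM159PT difference with GC content was 0.60 against SUM149PT CSCs and 0.53 against HCC1937 CSCs. The fitted members had a median exon GC content of 56.9% against 50.2% for all genes in the comparison with SUM149PT CSCs. With the GC trend removed, the members' median stood 0.64 above that of all genes against SUM149PT CSCs and 0.10 above it against HCC1937 CSCs. Among genes whose GC content lay within the quartiles of the members, the 2239 genes against SUM149PT CSCs had a median difference of 0.55, with 55.3% called higher, and the 19 members among them 1.05. Against HCC1937 CSCs the 2398 such genes had a median of 0.23, with 47.3% called higher, and the 19 members 0.23. In the comparisons of the sorted fractions the same correlation over all genes was weaker, at -0.14 in SUM149PT and -0.18 in HCC1937. Among the members alone it was 0.04 and 0.17 in the SUM159PT comparisons (37 members each), -0.39 in SUM149PT (38) and -0.26 in HCC1937 (36). The part of base composition, or of how the libraries were made, in the SUM159PT differences was not tested.

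**Figure D4:**
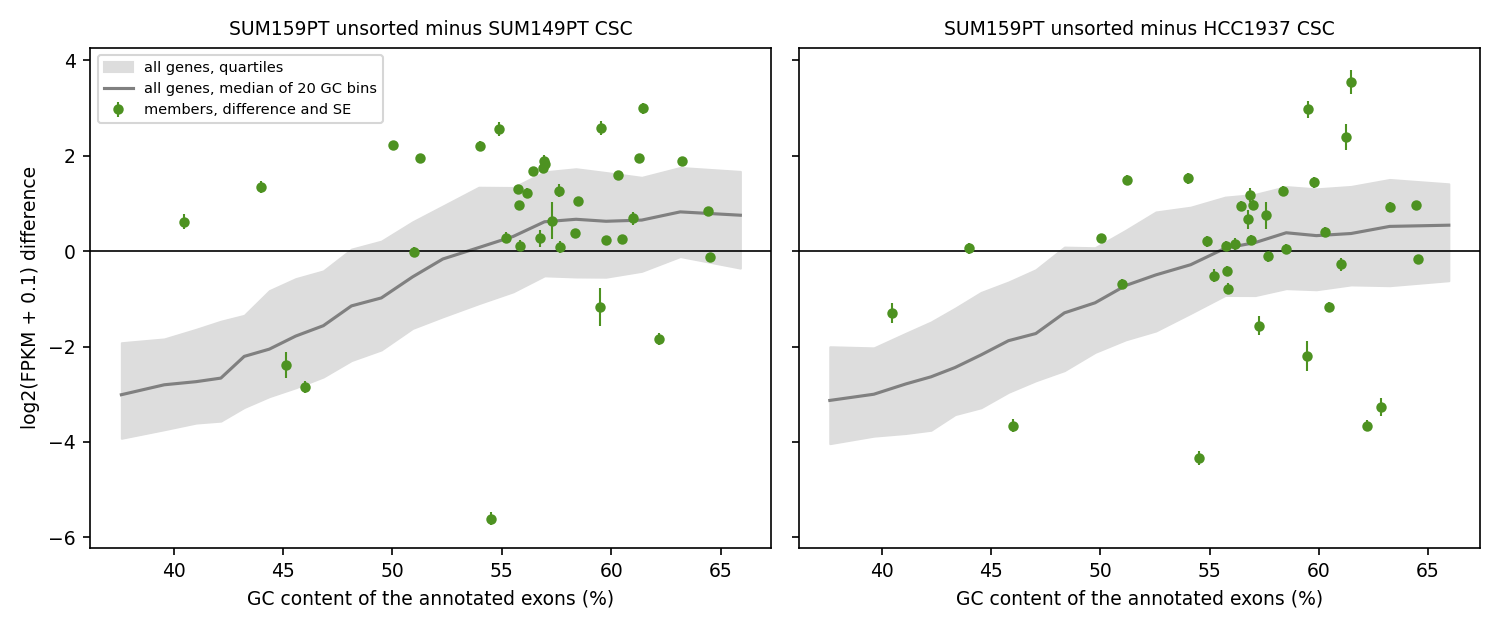
Difference in log2(FPKM + 0.1) between SUM159PT and the CSCs of SUM149PT (left) or HCC1937 (right) on the vertical axis against the GC content of each gene's annotated exons in percent (horizontal axis): members as points with SE (3 libraries a group), all genes as the median (line) and quartiles (band) of 20 GC bins. The members' median GC content is 56.9% (left) and 57.0% (right), and the correlation over all genes is 0.60 (left) and 0.53 (right).

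Under each of the 5 scalings (FPKM as deposited, quantile, upper quartile, TPM and GC trend removed), the same 13 members were called higher in SUM159PT than in SUM149PT CSCs: ACAP1, C17orf49, CTDNEP1, DVL2, EIF5A, GABARAP, GPS2, MPDU1, PLSCR3, SENP3, SLC2A4, TMEM256 and TNFSF12. KIAA0753, SLC16A13 and XAF1 were lower under all 5. Of the 13140 genes fitted under all 5, 15.4% were higher and 30.6% lower under each. Against HCC1937 CSCs, 7 members were higher under all 5, ACAP1, DLG4, GABARAP, KCTD11, SLC2A4, TMEM256 and TNFSF12, and 4 were lower, KIAA0753, SLC16A13, XAF1 and YBX2, beside 14.4% and 30.5% of 13519 genes. The membrane genes GABARAP and TMEM256 thus stood higher in SUM159PT in both comparisons whichever scaling was used. ACAP1, which regulates the small GTPase ARF6, passed the minimum only through SUM159PT and so had to stand higher there. In the same way XAF1 and ASGR1 in both comparisons, FBXO39 against SUM149PT CSCs and YBX2 against HCC1937 CSCs passed only through the sorted CSCs and had to be lower in SUM159PT.

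TNFSF12 was higher in SUM159PT by 2.99 ± 0.12 against SUM149PT CSCs and by 3.54 ± 0.25 against HCC1937 CSCs, in 3 of 3 libraries each. Over the alternatives that kept all libraries, the first difference ranged from 1.96 to 3.86 and the second from 2.63 to 4.54. Its annotated readthrough with TNFSF13 covers the same locus, as described with the overlapping genes. SLC2A4, the insulin-responsive glucose transporter GLUT4, stood at 0.382, 0.284 and 0.292 FPKM in SUM149PT CSCs, 0.532, 0.868 and 0.753 in SUM149PT non-CSCs, 0.266, 0.247 and 0.153 in HCC1937 CSCs, 0.276, 0.188 and 0.336 in HCC1937 non-CSCs and 2.44, 2.79 and 2.04 in SUM159PT. SUM159PT was well above the sorted groups, among which HCC1937 non-CSCs overlapped both CSC groups. SLC2A4 was higher in SUM159PT by 2.59 ± 0.15 against SUM149PT CSCs (alternatives 1.37 to 3.71) and by 2.98 ± 0.18 against HCC1937 CSCs (alternatives 1.48 to 4.26).

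XAF1 was lower in SUM159PT, at -5.61 ± 0.13 against SUM149PT CSCs and at -4.34 ± 0.15 against HCC1937 CSCs, a direction that the minimum fixed. Because its SUM159PT values are at or next to 0, the size rests on the constant added before the logarithm: over the alternatives it ran from -7.81 to -2.73 and from -6.50 to -1.71. KIAA0753, a protein of the centrosome and centriolar satellites, stood at 2.08, 1.76 and 1.87 FPKM in SUM149PT CSCs, 2.78, 2.6 and 2.72 in SUM149PT non-CSCs, 3.36, 3.12 and 3.77 in HCC1937 CSCs, 3.0, 3.02 and 3.28 in HCC1937 non-CSCs and 0.191, 0.213 and 0.136 in SUM159PT. SUM159PT was lowest, then the SUM149PT CSCs and non-CSCs, without overlap, and the HCC1937 fractions overlapped above them. KIAA0753 was lower in SUM159PT, at -2.85 ± 0.13 against SUM149PT CSCs (alternatives -4.08 to -1.17) and at -3.66 ± 0.14 against HCC1937 CSCs (alternatives -4.83 to -1.82).

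By role, and with FPKM as deposited, the 6 membrane genes other than ACAP1 were called higher in SUM159PT than in SUM149PT CSCs, at 0.85 to 2.21, beside 31.5% of all genes. They were also called higher than in HCC1937 CSCs, at 0.75 to 1.53, beside 27.5% of all genes. After rescaling to TPM 4 of these calls were lost against HCC1937 CSCs, those of CTDNEP1 (-0.06), PLSCR3 (-0.08), RNASEK (-0.25) and TMEM102 (-0.02). Against SUM149PT CSCs that rescaling ended the call of RNASEK (0.18) and turned TMEM102 to -0.22, which was called lower, and TMEM102 was not called with the GC trend removed (0.12). The call of RNASEK against HCC1937 CSCs, at 0.75, rested on single libraries: it was lost without HCC1937 CSC library 2 (0.65) or 3 (0.54) and without any 1 SUM159PT library (0.68 to 0.87). The metabolic genes ACADVL, TXNDC17 and MPDU1 were higher than in SUM149PT CSCs, at 1.05, 1.34 and 2.56, of which ACADVL (-0.04) and TXNDC17 (0.27) were no longer called after rescaling to TPM, and none of these 3 passed the threshold by limma against HCC1937 CSCs. The 5 genes called lower than in SUM149PT CSCs were KIAA0753 and SLC16A13 and, with a direction fixed by the minimum, XAF1, FBXO39 and ASGR1. Of these, ASGR1 at -1.17 lost its call without SUM149PT CSC library 2 (-0.96) or 3 (-1.07) or SUM159PT library 1 (-1.24) or 2 (-0.83). The ASGR1 call was also lost with quantile normalization (-0.28) or upper quartile scaling (-0.99), and that of FBXO39, at -2.38, with the GC trend removed (-0.52). SENP3, a protease that removes SUMO in the nucleolus, was higher than in HCC1937 CSCs at 0.28, a call lost without HCC1937 CSC library 2 or 3 or SUM159PT library 2 (0.26 to 0.28), and after rescaling to TPM it was called lower (-0.72). Other calls that turned were, against SUM149PT CSCs, DLG4 (0.37 to -0.71) and NEURL4 (0.26 to -0.81) after rescaling to TPM and NEURL4 (-0.40) with the GC trend removed. Against HCC1937 CSCs they were DVL2 (0.41 to -0.59) after rescaling to TPM, CHRNB1 (-0.51 to 0.96) with quantile normalization and MED31 (-1.29 to 1.55) with the GC trend removed.

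The ends of the region fall between genes that moved the same way. KIAA0753, just inside on the telomere side, differed between SUM149PT CSCs and non-CSCs by -0.49 ± 0.08. PITPNM3, a phosphatidylinositol transfer protein just outside, stood at 0.134, 0.142 and 0.127 FPKM in SUM149PT CSCs, 2.12, 2.67 and 2.54 in SUM149PT non-CSCs, 4.07, 4.02 and 3.99 in HCC1937 CSCs, 5.01, 5.61 and 5.82 in HCC1937 non-CSCs and 0.154, 0.188 and 0.113 in SUM159PT, a difference of -3.43 in SUM149PT. MPDU1, just inside on the centromere side, differed by -1.04 ± 0.15. SOX15, a transcription factor taken as the nearest gene outside although it lies within the annotated span of MPDU1, stood at 0.321, 0.393 and 0.640 FPKM in SUM149PT CSCs, 12.8, 14.3 and 13.8 in SUM149PT non-CSCs, 3.15, 3.7 and 2.72 in HCC1937 CSCs, 16.6, 14.7 and 15.8 in HCC1937 non-CSCs and 0.0304, 0.0315 and 0.162 in SUM159PT, a difference of -4.68. Both outside genes were thus further below 0 than the members next to them, with SUM149PT CSCs low beside the non-CSCs of that line and no overlap.

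Genes around the members were also mostly lower in this comparison. Of the 10 protein-coding genes between the ends that are not members, 6 were fitted in SUM149PT, but 4 of these are readthrough genes that share sequence with members. The other 2, named after their values were seen, were called lower, C17orf100 at -3.01 and CLDN7, a claudin of epithelial tight junctions, at -4.82. The 25 nearest protein-coding genes on the telomere side had 22 fitted, with a median of -1.37, of which 20 were called lower. The 2 called higher there were NLRP1, an inflammasome sensor, at 1.82 and WSCD1 at 2.81, both named after their values were seen. On the centromere side 23 of 25 genes were fitted, with a median of -1.44, and 21 were called lower and none higher by limma. In HCC1937 the same sets had medians of -0.02 on the telomere side and -0.14 on the centromere side, near 0 like the members' median. Single genes could differ more: CLDN7 was called lower there at -1.82, while C17orf100 at 0.18 was not called. At least 2-fold lower in HCC1937 were 4 of 22 fitted genes on the centromere side and 0 of 20 on the telomere side, beside 7.32% of all genes.

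Along the whole chromosome, genes were grouped in windows of 5 Mb, a choice made after values were seen. In SUM149PT the medians of the first and second windows from the end of the short arm were -1.16 over 65 genes and -1.17 over 100 genes, the members lying in the second. The next windows gave -0.34, over 13 genes only, and -0.52 over 65 genes. Over the first 15 Mb, 178 genes had a median of -1.14 and 89.9% were below 0, and the 140 of them that are not members had a median of -1.12. Beyond 15 Mb, 652 genes had a median of -0.04 and 51.7% were below 0. The low values in SUM149PT CSCs were therefore shared by the members with the other genes near the end of the short arm. Windows 15 and 17, near the other end of the chromosome, also had low medians, -0.82 over 20 genes and -0.83 over 65 genes. In HCC1937 the first 15 Mb had a median of -0.08 over 181 genes and the rest of the chromosome -0.06 over 660. The medians of whole chromosomes in SUM149PT ran from -0.50 on chromosome 20 to 0.44 on chromosome 5, with -0.30 on chromosome 17.

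**Figure D5:**
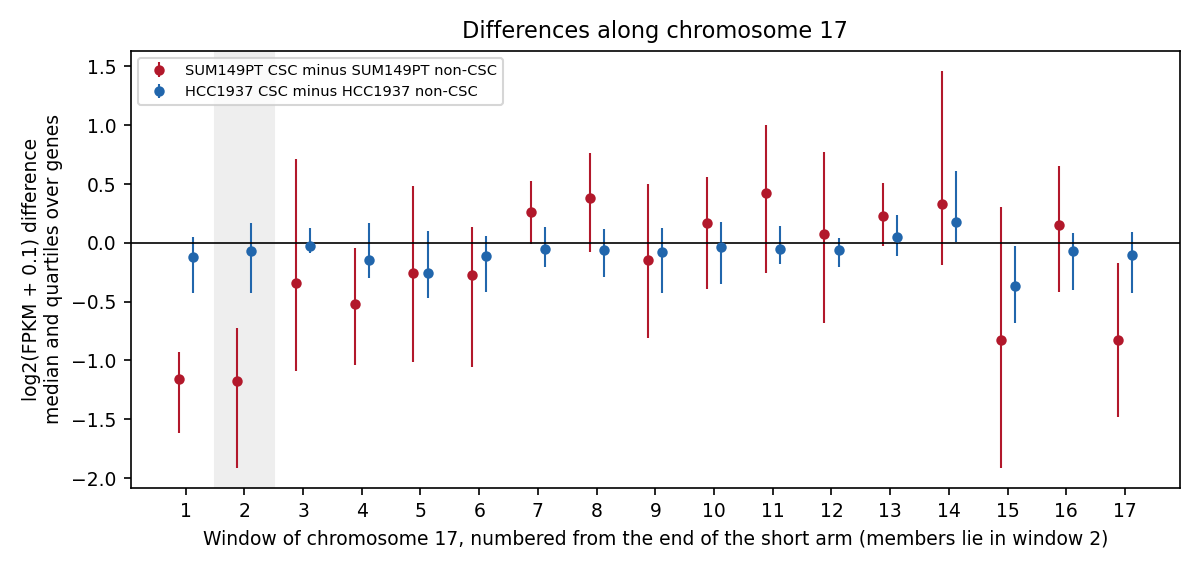
Difference between CSCs and non-CSCs in log2(FPKM + 0.1) (vertical axis; median with quartiles over the genes of a window) in SUM149PT and HCC1937 for 17 windows of 5 Mb along chromosome 17, numbered from the end of the short arm (horizontal axis). The members lie in window 2, shaded, where the SUM149PT median is -1.17 and the HCC1937 median -0.07.

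Among the members, 3 pairs start head to head, on opposite strands and within 1000 bases of each other. KIAA0753 and TXNDC17, a thioredoxin-like protein, overlap at their starts, with a gap of -169 bases. TXNDC17 stood at 4.06, 3.66 and 5.01 FPKM in SUM149PT CSCs, 9.57, 8.0 and 9.34 in SUM149PT non-CSCs, 11.8, 10.5 and 9.15 in HCC1937 CSCs, 14.9, 13 and 13.1 in HCC1937 non-CSCs and 11.5, 11.1 and 10.03 in SUM159PT. SUM149PT CSCs were lowest and HCC1937 non-CSCs highest without overlap. In the SUM149PT comparison the pair differed by -0.49 and -1.07, and against SUM149PT CSCs SUM159PT was lower for KIAA0753 (-2.85) and higher for TXNDC17 (1.34). After removal of the GC trend the KIAA0753 value there was -1.17, and after rescaling to TPM TXNDC17 stood at 0.27 and was no longer called.

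TMEM256 and NLGN2 start 737 bases apart by the GENCODE starts, while the RefSeq start of NLGN2 behind the promoter printed above lies further downstream. NLGN2 stood at 11.8, 11.3 and 11.3 FPKM in SUM149PT CSCs, 21, 23.7 and 22.3 in SUM149PT non-CSCs, 11.7, 11.9 and 12.2 in HCC1937 CSCs, 9.17, 11 and 11.4 in HCC1937 non-CSCs and 9.98, 11.1 and 10.7 in SUM159PT. It was highest in SUM149PT non-CSCs, while HCC1937 non-CSCs overlapped SUM159PT and SUM149PT CSCs at the low end and SUM149PT CSCs overlapped HCC1937 CSCs. The pair differed between the SUM149PT fractions by -0.40 and -0.95, whereas between SUM159PT and SUM149PT CSCs TMEM256 differed by 2.21 and NLGN2 by -0.11.

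ZBTB4 and POLR2A start 103 bases apart. ZBTB4 stood at 9.34, 9.25 and 9.4 FPKM in SUM149PT CSCs, 18.4, 19.5 and 18.3 in SUM149PT non-CSCs, 10.1, 11 and 10.8 in HCC1937 CSCs, 11.6, 11.2 and 13.9 in HCC1937 non-CSCs and 8.97, 11.8 and 9.17 in SUM159PT. POLR2A, the largest subunit of RNA polymerase II, stood at 12.7, 11 and 12 FPKM in SUM149PT CSCs, 33.8, 35.4 and 34.1 in SUM149PT non-CSCs, 22.2, 22.2 and 21.7 in HCC1937 CSCs, 17.6, 19 and 23.9 in HCC1937 non-CSCs and 11.1, 12.7 and 14.7 in SUM159PT. Both were highest in SUM149PT non-CSCs and both had SUM149PT CSCs overlapping SUM159PT at the low end. In SUM149PT they differed by -0.996 and -1.53, and in HCC1937 by -0.19 and 0.14, neither of the HCC1937 values being called.

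Some members cannot be read apart from their neighbours. By annotated span, 26 of the 44 overlap another gene of the table, and 8 do so on the same strand, where the readthrough genes RNASEK-C17orf49, TMEM256-PLSCR3, TNFSF12-TNFSF13 and SENP3-EIF4A1 join adjacent members. Whether the libraries kept the strand is not stated, so how reads in shared stretches were assigned is unknown. With the overlapping members left out, the median difference was -1.56 in SUM149PT and -0.30 in HCC1937, both further below 0 than with them. Against HCC1937 CSCs the SUM159PT median turned from 0.14 to -0.17 without them, and against SUM149PT CSCs it went from 0.97 to 0.27.

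Marker genes of the sorted fractions and of other cell types were read in the same libraries. CD44, a sorting marker, stood at 83.4, 82.9 and 86.8 FPKM in SUM149PT CSCs, 67, 65.3 and 61.4 in SUM149PT non-CSCs, 113, 100.4 and 106 in HCC1937 CSCs, 96, 95.1 and 102 in HCC1937 non-CSCs and 28.6, 29.4 and 28.4 in SUM159PT. CD24, the other sorting marker, stood at 7.97, 7.64 and 7.61 FPKM in SUM149PT CSCs, 147, 137 and 134 in SUM149PT non-CSCs, 23.6, 22.5 and 23.9 in HCC1937 CSCs, 167, 141 and 142 in HCC1937 non-CSCs and 0.759, 0.682 and 0.745 in SUM159PT. CD24 was thus lower in the CSCs of both lines than in their non-CSCs, CD44 differed less, and SUM159PT was low in both.

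The 5 epithelial markers (EPCAM, CDH1, KRT8, KRT18, KRT19) were all called lower in CSCs in both sorted lines, and they summed to 122, 127 and 125 FPKM in SUM149PT CSCs, 1686, 1637 and 1662 in SUM149PT non-CSCs, 503, 467 and 419 in HCC1937 CSCs, 1408, 1427 and 1216 in HCC1937 non-CSCs and 291, 276 and 290.1 in SUM159PT. KRT19 was the most abundant of them in SUM149PT non-CSCs, with a mean of 1127 FPKM. The 3 basal markers (KRT5, KRT14, KRT17) were also all called lower in CSCs in both lines and summed to 70.8, 74.5 and 73.1 FPKM in SUM149PT CSCs, 709, 684 and 655 in SUM149PT non-CSCs, 228, 213 and 199 in HCC1937 CSCs, 437, 428 and 384 in HCC1937 non-CSCs and 2.83, 2.61 and 2.62 in SUM159PT. KRT17 led in SUM149PT non-CSCs with a mean of 540.1 FPKM. The 4 mesenchymal markers (VIM, ZEB1, FN1, CDH2) were all called higher in CSCs in both lines and summed to 2338, 2486 and 2397 FPKM in SUM149PT CSCs, 456, 447 and 508 in SUM149PT non-CSCs, 1077, 947 and 923 in HCC1937 CSCs, 140.5, 211 and 186 in HCC1937 non-CSCs and 1227, 1234 and 1257 in SUM159PT, led in each group by VIM, with a mean of 2090 FPKM in SUM149PT CSCs. These markers moved in the same direction in both lines, and some of them further in SUM149PT: in the difference between the 2 CSC effects 5 of 5 epithelial and 2 of 3 basal markers were called lower, and of the 4 mesenchymal markers 2 were higher and 1 lower. Their part in the member differences was not tested.

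CD14, a monocyte receptor, stood at 2.68, 3.08 and 2.21 FPKM in SUM149PT CSCs, 52.4, 48.6 and 52.9 in SUM149PT non-CSCs, 65, 62.4 and 53.6 in HCC1937 CSCs, 29.5, 32.8 and 28.5 in HCC1937 non-CSCs and 19.7, 19.9 and 16.6 in SUM159PT. CD3E was at 0 in every library, and PTPRC had group means of at most 0.0660 FPKM and CSF1R of at most 0.388 FPKM. The endothelial list (PECAM1, CDH5) summed to 0.126, 0.120 and 0.115 FPKM in SUM149PT CSCs, 0.964, 1.08 and 0.976 in SUM149PT non-CSCs, 0.751, 0.673 and 0.605 in HCC1937 CSCs, 0.888, 0.707 and 0.795 in HCC1937 non-CSCs and 0.0699, 0.0575 and 0.0689 in SUM159PT, PECAM1 leading in HCC1937 CSCs at a mean of 0.606 FPKM, and 2 of 2 were lower in SUM149PT CSCs and 1 of 2 in HCC1937 CSCs. The fibroblast list (COL1A1, COL1A2, DCN, PDGFRB) summed to 227, 229.9 and 224 FPKM in SUM149PT CSCs, 64.7, 66.2 and 68 in SUM149PT non-CSCs, 12.2, 12.3 and 11.6 in HCC1937 CSCs, 6.04, 7.21 and 7.78 in HCC1937 non-CSCs and 40.4, 45.4 and 43.2 in SUM159PT, led by COL1A1 in each group. Of its 4 genes, 2 were higher and 1 lower in SUM149PT CSCs and 2 were higher in HCC1937 CSCs, and the part of these genes in the member differences was not tested. Among the members, CD68 is the macrophage-linked gene, and like CD14 it was lowest in SUM149PT CSCs. CSF1R did not follow this order, with means of 0.251 FPKM in SUM149PT CSCs, 0.231 in SUM149PT non-CSCs and, as its lowest, 0.0776 in SUM159PT.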

How the data were processed

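The authors' deposited table gives FPKM for each gene and library, and it was used as deposited. The submitters' notes name Bowtie2 and GRCh38; the tool and annotation behind the FPKM are not given in the sources used here. Values were taken as log2(FPKM + 0.1), genes averaging 0.1 FPKM or more across the libraries in question were fitted with limma 3.58.1 (lmFit and eBayes) in R 4.3.3, and p-values were adjusted over all genes fitted by Benjamini and Hochberg. An exact test of 3 against 3 libraries cannot go below 0.1 (two-sided) and was not used. Positions and exon GC content came from GENCODE 29 on GRCh38, matched for 24443 of 33158 genes. Tables and figures were made with pandas 2.3.3, numpy 2.4.6, scipy 1.17.1 and matplotlib 3.10.9.

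The members and lists were chosen with earlier results of these data known. Values of every library are given for the 8 members with the highest mean FPKM, for the 2 with the largest positive and the 2 with the largest negative difference in each comparison among members averaging 1 FPKM or more in the libraries of that comparison, for the end members and their outside neighbours, and for head-to-head pairs within 1000 bases.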

Additional observations from a re-analysis of the deposited data

Results flagged for a closer look

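The difference between CSCs and non-CSCs was not the same in SUM149PT and HCC1937 for 33 members, by the limma interaction term, SUM149PT effect minus HCC1937 effect, with 3 libraries a group, beside 33% of all 16451 genes called lower and 28.1% called higher. The comparison is one of those that chose the members, so this is a description. ACAP1, among the 33, passed the minimum only through SUM149PT non-CSCs and had to be lower. Among the members named by rule, TNFSF13 had a value of -3.84 and SLC16A13 one of -3.65, both of them lower in CSCs of both lines with the larger difference in SUM149PT. XAF1 had a value of 1.495, being higher in CSCs of SUM149PT and lower in CSCs of HCC1937, where its call was lost after rescaling to TPM. With 1 library left out the values ran from -4.19 to -3.46 for TNFSF13, from -3.75 to -3.56 for SLC16A13 and from 1.41 to 1.54 for XAF1, and the number of members past the threshold was 32 or 33. No cause of these differences between the lines was tested.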

How the results depend on the processing

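Each result was recomputed with other pseudocounts, minimum levels, scalings, fits and thresholds and with each library left out. Of the counts and medians over members, 222 values kept their direction and changed little, 46 moved and 3 changed sign. Single values were tallied only for the members with the largest positive and negative differences in each comparison. Of these values, 489 kept their direction and side of the threshold, 6 passed it newly and 5 no longer passed it. The tally leaves out lost calls of other members, such as TMEM256 in SUM149PT, ACADVL in HCC1937 and ZBTB4 between the CSCs. Those are given with the comparisons, so the tally does not show how often member calls were lost. The cause was not tested where a value moved, other than where fewer members or a stricter limit made it.

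The sign changes were all in medians of the SUM159PT comparisons. Rescaling to TPM gave -0.11 against SUM149PT CSCs and -0.86 against HCC1937 CSCs, and leaving out overlapping members gave -0.17 against HCC1937 CSCs.

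For SUM149PT CSC minus non-CSC the median was -0.92 with a pseudocount of 1, -1.06 with no minimum, -1.02 with quantile normalization, -1.09 with upper quartile scaling, -0.99 with the GC trend removed and -1.56 without overlapping members. The members called were 18 at the stricter limit. With a 2-fold minimum they were 23, beside 3702 of 16037 genes at least 2-fold lower and 2143 at least 2-fold higher. Here and in the comparisons that follow, the counts of all genes take the fold alone, called or not, while those of members also need the call. By the fold alone 23 members were lower and 0 higher in SUM149PT CSCs. No share of all genes is given at the stricter limit in any comparison, so nothing is read from the counts there. For HCC1937 CSC minus non-CSC the median was -0.000141 with TPM, -0.05 with no minimum, -0.04 with quantile normalization, -0.07 with upper quartile scaling, -0.06 with the GC trend removed and -0.30 without overlapping members. Called there were 0 at the stricter limit by limma, where 15 members had an unadjusted p under 0.05. With the 2-fold minimum 5 were called, beside 1141 of 15582 genes at least 2-fold lower and 584 at least 2-fold higher.

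For HCC1937 CSC minus SUM149PT CSC the median was 0.68 with a pseudocount of 1, 0.70 with quantile normalization, 0.68 with upper quartile scaling and 0.57 with the GC trend removed. There 12 and 18 members were called at the stricter limit and with the 2-fold minimum, beside 2952 of 15952 genes at least 2-fold lower and 4353 at least 2-fold higher. For the non-CSCs of these lines the median was -0.38, -0.44, -0.43 and -0.38 with quantile, upper quartile, TPM and GC trend removed, and -0.37 without overlapping members. Called were 9 and 12 members, beside 3544 of 16433 genes at least 2-fold lower and 3754 at least 2-fold higher.

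For SUM159PT minus SUM149PT CSC the median was 0.70 with a pseudocount of 1, 0.77 with no minimum, 1.14 with a minimum of 1 FPKM, 1.59 with quantile normalization, 1.31 with upper quartile scaling, 0.91 with 1 fit over all 15 libraries, 0.64 with the GC trend removed and 0.27 without overlapping members. Against HCC1937 CSC it was 0.66 with quantile normalization and 0.71 with upper quartile scaling. There 11 and 16 were called, beside 7679 of 15515 genes at least 2-fold lower and 2968 at least 2-fold higher. For the difference between the CSC effects the median was -0.81 with a pseudocount of 1, -0.88 with no minimum, -1.01 with quantile normalization and -0.94 with the GC trend removed. Called were 15 and 21 members, beside 3291 of 16451 genes at least 2-fold lower and 2205 at least 2-fold higher.

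With 1 library left out, the members called and their median ran from 36 to 37 and -1.21 to -1.13 in SUM149PT and from 8 to 11 and -0.20 to -0.02 in HCC1937. Between the lines they ran from 29 to 30 and 0.82 to 0.90 in CSCs and from 23 to 27 and -0.30 to -0.24 in non-CSCs. For SUM159PT they ran from 28 to 30 and 0.92 to 1.004 against SUM149PT CSCs and from 26 to 28 and 0.04 to 0.25 against HCC1937 CSCs. For the difference between the CSC effects they ran from 32 to 33 and -1.17 to -1.005.

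With a replicate block, which treats libraries of the same number as paired, the members called in the order above were 36, 8, 30, 26, 30, 27 and 32. The share of all genes called is not given for this fit or with a library left out, so nothing is read from these counts. Same-numbered CSC and non-CSC libraries were also correlated across genes, after each gene's mean within its group was subtracted. These correlations, of deviations and not of levels, were 0.14, 0.02 and 0.13 in SUM149PT, beside at most 0.05, 0.07 and -0.05 with another number. In HCC1937 they were -0.13, -0.05 and -0.03, beside at most 0.13, 0.03 and 0.11. They were thus above those of other numbers for replicates 1 and 3 of SUM149PT and for none of HCC1937. With no read counts, what depth limits could not be given.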
